A study of Homo sapiens with 24 samples.

Results

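In all, 10 protein-coding genes of chromosome 1 that encode factors of pre-mRNA splicing were followed through a transcriptome of HEK293 cells. They are SRSF4 and SRSF11 (serine/arginine-rich, or SR, proteins), HNRNPR and HNRNPU (heterogeneous nuclear ribonucleoproteins, hnRNPs), SFPQ (a protein of paraspeckles), SNRPE (a protein of the small nuclear ribonucleoprotein core), SF3A3 and SF3B4 (subunits of the U2 particle), PRPF3 (a protein of the U4/U6 particle) and PRPF38A (a protein that joins the spliceosome before its activation). The genes were chosen by name and by chromosome, and each of the 10 has 1 row among the 11579 rows of the deposited table. The rows of chromosome 1 number 1131.

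The study asked how EVI1, a zinc finger transcription factor, acts on transcription when its carboxy-terminal serine motif cannot be phosphorylated, with and without genotoxic stress. HEK293, an established human embryonic kidney cell line, was left untransfected or was transiently transfected with a pCMV-flag plasmid that was empty or carried EVI1-WT or EVI1-AQA, in which alanines replace the serines of the motif. The CMV promoter of these plasmids is a strong viral promoter, and the share of cells that took up a plasmid is not given in the sources used here. For each of these 4 transfection states, cells without treatment and cells given H2O2 (150 μM, 8 h) were compared, which makes 8 groups of 3 samples. One sample of each group belongs to each of 3 batches of 8 samples, and the batch number in the labels equals the replicate number. The labels do not say whether the samples of a group came from separate cultures, so the p-values measure the spread between these samples, which may be technical.

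RNA splicing removes introns from the primary transcript through the spliceosome, a machine that is assembled anew on each intron from small nuclear ribonucleoproteins (snRNPs) and many further proteins. The U2 snRNP marks the branch point, the U4/U6.U5 tri-snRNP brings the catalytic RNAs, and rearrangements by way of the B complex lead to the active machine. SR proteins mostly promote the use of nearby exons, whereas hnRNPs often oppose them, and many genes of both families adjust their own transcripts through splicing.

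The values are log2 expression values in which the authors' normalization left the mean of each row over each batch at 0. A value of a gene is therefore its difference, on the log2 scale, from the mean of the same gene over the 8 samples of its batch. The table holds no absolute level, the depth of the libraries is unknown, and levels cannot be compared between genes. For the same reason the labelled cell line could not be checked by its marker genes.

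A few libraries stood apart. The libraries labelled untransfected untreated replicates 2 and 3 had a standard deviation over all rows of 0.421 each, against 0.245 to 0.364 in the other 22 libraries. The row labelled CACNB3 (chosen with its values known) was above 2 in the libraries of EVI1-transfected cells and below -1 in the rest, except in 3 libraries that went against this split of the labels. These were empty vector with H2O2 replicate 2 at 4.36, EVI1-WT with H2O2 replicate 2 at -4.38 and EVI1-AQA with H2O2 replicate 1 at -2.60. All samples kept their labels, and values without these libraries are given beside the tests that changed when they were left out. The row names were checked against the annotation. On chromosome 1, 50.7% of annotated protein-coding genes and 2.39% of other genes had a row, against 19.3% and 16.4% on chromosomes 2 to 22. Within 5 Mb of each of the 10 genes, between 22.8% (HNRNPU) and 62.9% (SFPQ) of protein-coding genes had a row, and at most 3.75% of other genes did (PRPF3).

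In the GENCODE v44 annotation of GRCh38 the genes lie at HNRNPR (chr1:23303771-23344336, minus strand), SRSF4 (chr1:29147743-29181900, minus strand), SFPQ (chr1:35176378-35193446, minus strand), SF3A3 (chr1:37956975-37990075, minus strand), PRPF38A (chr1:52404602-52420836, plus strand), SRSF11 (chr1:70205682-70253052, plus strand), SF3B4 (chr1:149923317-149927803, minus strand), PRPF3 (chr1:150321479-150353233, plus strand), SNRPE (chr1:203861599-203871152, plus strand) and HNRNPU (chr1:244840638-244864560, minus strand). The libraries read the 3′ ends of transcripts, and the strand setting of the counting is not given in the sources used here. The 3′ end of PRPF38A lies within TUT4 and that of HNRNPU within COX20, both on the opposite strand, so reads of these pairs could have been mixed. TUT4, listed under its older symbol ZCCHC11, differed with H2O2 by -0.032 ± 0.090 (SE, adjusted p = 0.840 in limma's test), and COX20 is not analysed here. Annotated pseudogenes could have shared reads with 7 of the genes, most of all with SNRPE, which has 10.

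The bases upstream of the annotated start are shown for the genes that the results turn on: SRSF11, HNRNPR and PRPF38A, which passed the test with H2O2, and SRSF4, which spread most over the 24 samples. They come from RefSeq windows on GRCh38.p14, printed 5′ to 3′ in the direction of the gene up to the base before its GENCODE start. Bases within the neighbouring genes LRRC40 (upstream of SRSF11) and ORC1 (upstream of PRPF38A) are left out. Capitals mark matches, on either strand, to one of the short motifs named after the sequences.
SRSF11, 102 bases, chr1:70205580-70205681, plus strand: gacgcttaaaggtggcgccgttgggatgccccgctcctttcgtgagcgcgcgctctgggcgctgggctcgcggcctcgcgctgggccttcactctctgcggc
HNRNPR, 198 bases, chr1:23344337-23344534, minus strand: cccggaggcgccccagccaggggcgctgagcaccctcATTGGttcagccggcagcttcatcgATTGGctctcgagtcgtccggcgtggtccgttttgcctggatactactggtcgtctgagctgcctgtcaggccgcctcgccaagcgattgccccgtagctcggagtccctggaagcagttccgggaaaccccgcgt
PRPF38A, 178 bases, chr1:52404424-52404601, plus strand: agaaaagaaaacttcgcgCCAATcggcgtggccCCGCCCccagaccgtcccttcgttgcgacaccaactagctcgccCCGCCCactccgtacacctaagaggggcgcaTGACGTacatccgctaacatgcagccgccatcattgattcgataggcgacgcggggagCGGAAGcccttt
SRSF4, 250 bases, chr1:29181901-29182150, minus strand: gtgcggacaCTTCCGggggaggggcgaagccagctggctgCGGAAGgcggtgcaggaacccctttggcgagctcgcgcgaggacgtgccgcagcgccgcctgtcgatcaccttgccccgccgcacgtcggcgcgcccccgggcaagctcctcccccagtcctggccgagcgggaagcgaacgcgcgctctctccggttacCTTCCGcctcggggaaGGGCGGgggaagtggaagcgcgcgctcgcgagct

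A set of 9 motifs was searched on both strands in the 250 bases upstream of the RefSeq start, and 7 of the 10 genes had a window that began near the GENCODE start. SFPQ and PRPF3 had no window, and that of SNRPE lay within the gene. The GC box GGGCGG occurred in 5 of the 7 windows (SRSF4, HNRNPU, SF3A3, SF3B4 and PRPF38A) and in 42.5% of 34943 windows of the genome. The ETS core CGGAAG occurred in 4 of 7 (SRSF4, SF3A3, SF3B4 and PRPF38A) and in 16.4% of all windows. The CCAAT box occurred in 3 of 7 (HNRNPR, HNRNPU and PRPF38A) and in 32.0% of all windows, and the cAMP response core TGACGT in PRPF38A alone and in 7.09% of all windows. A TATA box (TATAAA), an AP-1 site (TGANTCA), the antioxidant response core TGACNNNGC, the sequence GAAGATGAG bound by the carboxy-terminal fingers of EVI1 and the sequence GACAAGATA bound by its amino-terminal fingers matched in 0 of 7 windows, with shares of all windows of 10.8%, 6.59%, 10.9%, 0.266% and 0.0859%. The SRSF11 window matched none of the 9 motifs.

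Over the 24 samples the genes differed in how much they moved. SNRPE spread least, with an SD of 0.10 on the log2 scale, and only 0.440% of all rows had a smaller SD. SRSF4 spread most, with an SD of 0.39, above that of 83.6% of rows. The other 8 genes had SDs from 0.18 (SRSF11) to 0.26 (SF3B4), against a median of 0.27 over all rows. The plot of all values by group shows these spreads.

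**Figure D1:**
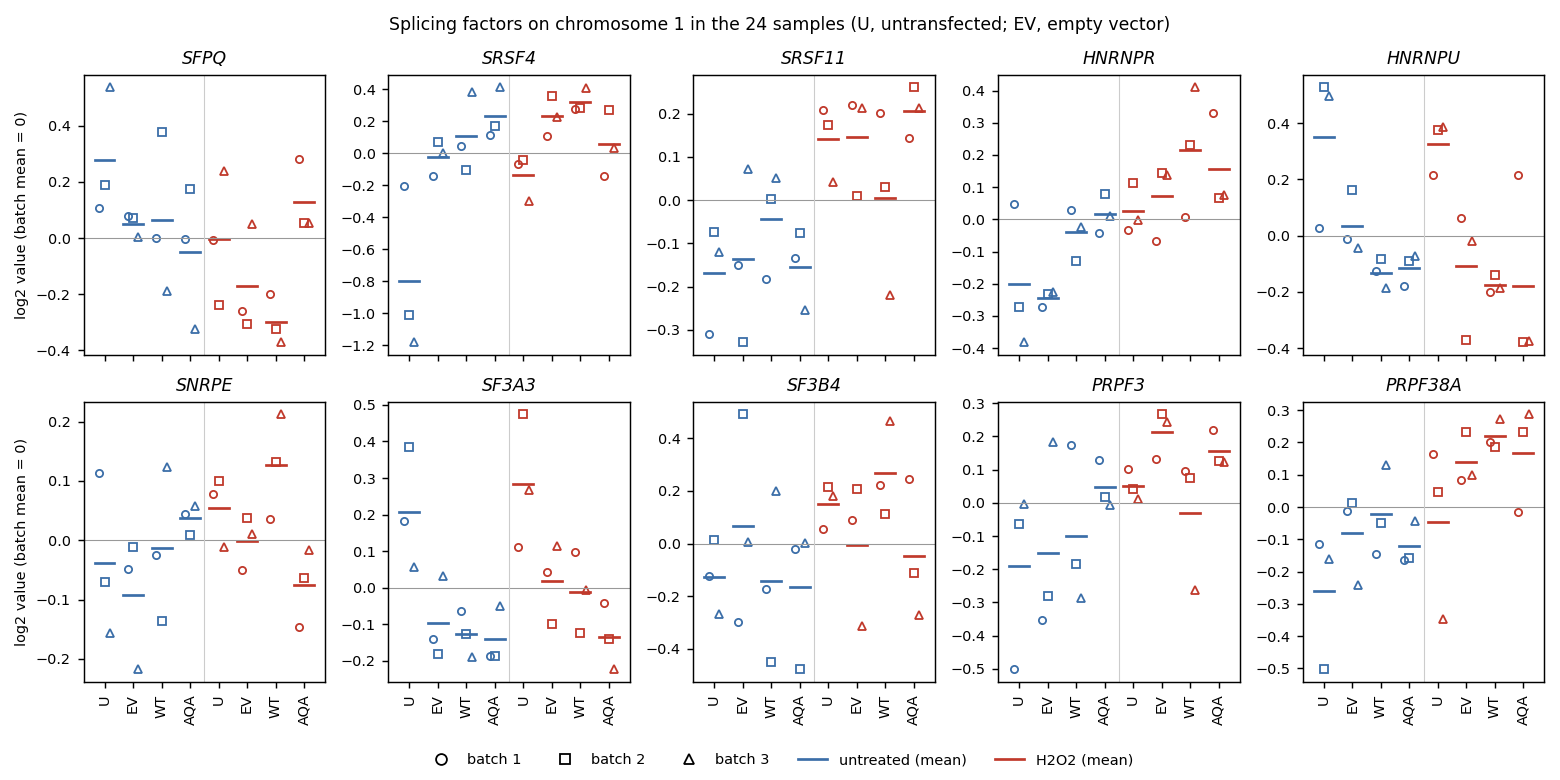
Log2 values of the 10 splicing factors (y axis, each gene on its own scale, 0 being the mean of the gene over its batch) in the 8 groups (x axis; U, untransfected; EV, empty vector; WT and AQA, the EVI1 constructs). Open symbols are single samples by batch, lines are means of 3, blue is untreated and red is H2O2. SRSF4 was lowest in untransfected untreated cells of batches 2 and 3, at -1.01 and -1.18, and HNRNPU and SF3A3 were highest in untransfected cells.

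The first question was whether the genes responded to H2O2 in any state. Averaged over the 4 transfection states, 3 of the 10 genes rose with H2O2 and none fell: SRSF11, HNRNPR and PRPF38A, by 0.24 to 0.25 on the log2 scale. Of the 10 genes, 8 had a difference above 0, as had 5833 of all 11579 rows. The median of the 10 was 0.19, against a median of 0.0016 over all rows. The test was limma's on all rows, two-sided, with a Benjamini-Hochberg adjusted p under 0.05. It called 16.5% of all rows, 8.90% as higher and 7.63% as lower, against 3 of the 10 genes, all called higher. In bulk samples, a change in the share of cells that hold a transcript and a change in its amount per cell cannot be told apart.

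Among the SR proteins, SRSF11 encodes an arginine/serine-rich protein of nuclear speckles. Its untreated values in batches 1, 2 and 3 were -0.31, -0.074 and -0.12 in untransfected cells, -0.15, -0.33 and 0.073 with empty vector, -0.18, 0.0023 and 0.052 with EVI1-WT and -0.13, -0.076 and -0.25 with EVI1-AQA. With H2O2 they were 0.21, 0.17 and 0.043 in untransfected cells, 0.22, 0.0093 and 0.21 with empty vector, 0.20, 0.031 and -0.22 with EVI1-WT and 0.14, 0.26 and 0.21 with EVI1-AQA. The treated sample was the higher one in 11 of 12 pairs of the same batch and state, EVI1-WT of batch 3 being the exception, while the groups overlapped when all samples were pooled. The rise was 0.25 ± 0.064 (SE, n = 12 against 12, adjusted p = 0.0115 in limma's test), and its size within batches 1, 2 and 3 was 0.39, 0.24 and 0.13.

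SRSF4, the other SR protein and a binder of exonic splicing enhancers, had untreated values of -1.18 to 0.41 (median 0.027, n = 12) and H2O2 values of -0.30 to 0.41 (median 0.17, n = 12). Its difference with H2O2, 0.24 ± 0.095, was as large as those that passed but did not pass (adjusted p = 0.0864 in limma's test), with 10 of 12 pairs higher. Without the 2 widely spread untransfected libraries it was 0.091 ± 0.078 (adjusted p = 0.454 in limma's test).

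HNRNPR encodes an RNA-binding hnRNP that is part of the complexes on nascent transcripts. Its untreated values in batches 1, 2 and 3 were 0.047, -0.27 and -0.38 in untransfected cells, -0.27, -0.23 and -0.23 with empty vector, 0.030, -0.13 and -0.024 with EVI1-WT and -0.043, 0.077 and 0.011 with EVI1-AQA. With H2O2 they were -0.032, 0.11 and -0.0032 in untransfected cells, -0.068, 0.14 and 0.14 with empty vector, 0.0079, 0.23 and 0.41 with EVI1-WT and 0.33, 0.066 and 0.074 with EVI1-AQA. All 12 treated values lay above -0.07, and the 5 lowest untreated ones, from the untransfected and the empty vector cells, lay below -0.22. The rise was 0.24 ± 0.063 (SE, adjusted p = 0.0150 in limma's test), with 9 of 12 pairs higher and 0.12, 0.28 and 0.31 within the 3 batches. The call was lost without the 3 libraries named above, where the difference was 0.20 ± 0.070 (adjusted p = 0.0632), and without the 2 widely spread untransfected libraries, where it was 0.17 ± 0.065 (adjusted p = 0.0713).

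HNRNPU, which encodes a large nuclear scaffold protein that binds RNA and DNA, gave -0.069 ± 0.078 with H2O2 (adjusted p = 0.586 in limma's test), and 5 of 12 pairs were higher. SFPQ, which encodes an RNA- and DNA-binding protein of paraspeckles with roles in splicing and DNA repair, had the lowest difference of the 10 at -0.17 ± 0.083 (adjusted p = 0.165), with 3 of 12 pairs higher. Its untreated values were -0.32 to 0.54 (median 0.075, n = 12) and its H2O2 values -0.37 to 0.28 (median -0.10, n = 12), so that the groups overlapped widely.

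The 5 core factors of the spliceosome included one that passed. PRPF38A, which belongs to the B complex, had untreated values in batches 1, 2 and 3 of -0.11, -0.50 and -0.16 in untransfected cells, -0.012, 0.013 and -0.24 with empty vector, -0.15, -0.051 and 0.13 with EVI1-WT and -0.16, -0.16 and -0.044 with EVI1-AQA. With H2O2 they were 0.17, 0.045 and -0.35 in untransfected cells, 0.084, 0.23 and 0.10 with empty vector, 0.20, 0.19 and 0.27 with EVI1-WT and -0.016, 0.23 and 0.29 with EVI1-AQA. The treated sample was higher in 11 of 12 pairs, and the untransfected cells of batch 3 were the exception. The rise was 0.24 ± 0.070 (SE, adjusted p = 0.0218 in limma's test), and it was 0.22, 0.35 and 0.16 within the batches. Without the 2 widely spread untransfected libraries it was 0.20 ± 0.074 (adjusted p = 0.0634).

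The other core factors did not pass. PRPF3, a component of the tri-snRNP that holds the U4 and U6 RNAs, differed by 0.20 ± 0.078 (adjusted p = 0.0882 in limma's test) with 11 of 12 pairs higher, and it passed when the 2 widely spread untransfected libraries were left out (0.27 ± 0.081, adjusted p = 0.0267). SF3B4, an RNA-binding subunit of SF3b in the U2 snRNP, differed by 0.18 ± 0.10 (adjusted p = 0.232), and SF3A3, a subunit of SF3a, by 0.079 ± 0.060 (adjusted p = 0.394). SNRPE, which encodes the E protein of the Sm ring, differed by 0.052 ± 0.053 (adjusted p = 0.534), the smallest difference in size of the 10. The treated sample was higher in 9 of 12 pairs for SF3B4, in 10 of 12 for SF3A3 and in 7 of 12 for SNRPE.

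The 3 calls changed with the batches that were left in. Over all 11579 rows the test called 581 without replicate 1, 595 without replicate 2 and 1218 without replicate 3. With all samples it called 1914. Without replicate 1 only HNRNPR passed, without replicate 2 none of the 10 genes passed in limma's test (2 at an unadjusted p under 0.05), and without replicate 3 SRSF11 and PRPF38A passed. The SRSF11 difference was 0.18 (adjusted p = 0.226) without replicate 1 and 0.26 (adjusted p = 0.0992) without replicate 2, against 0.25 in all samples. That of PRPF38A was 0.25 (adjusted p = 0.120) and 0.19 (adjusted p = 0.250) without the same replicates, against 0.24. That of HNRNPR, also 0.24 in all samples, was 0.21 (adjusted p = 0.179) without replicate 2 and 0.20 (adjusted p = 0.143) without replicate 3.

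**Figure D2:**
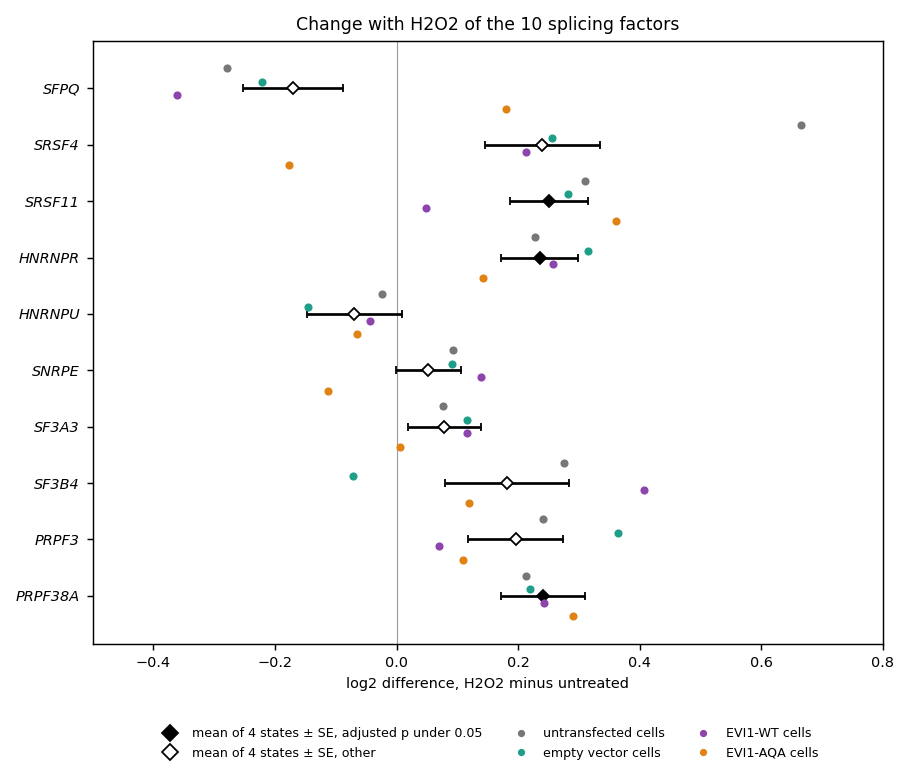
Log2 difference between H2O2 and untreated cells (x axis) for each splicing factor (y axis). Diamonds are the mean over the 4 transfection states with the SE of limma's fit, filled where the adjusted p is under 0.05 (SRSF11, HNRNPR and PRPF38A, between 0.24 and 0.25), and dots are the 4 states, each from 3 samples against 3.

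Within single transfection states, with 3 samples against 3, none of the 10 genes passed in limma's test. The test called 0.389% of all rows in untransfected cells, 2.00% with empty vector, 0.475% with EVI1-WT and 2.02% with EVI1-AQA. At an unadjusted p under 0.05 the numbers of the 10 genes were 2, 3, 1 and 1, against 15.4%, 17.5%, 14.7% and 17.7% of all rows. In untransfected cells these were SRSF4 (0.67 ± 0.19, adjusted p = 0.105 in limma's test) and SRSF11 (0.31 ± 0.13). With empty vector they were SRSF11 (0.28 ± 0.13), HNRNPR (0.32 ± 0.13) and PRPF3 (0.36 ± 0.16). With EVI1-AQA it was SRSF11, at 0.36 ± 0.13, whose 3 treated samples all lay above the 3 untreated ones. With EVI1-WT it was SFPQ, at -0.36 ± 0.17, whose treated samples all lay below the untreated ones. Treated and untreated samples also did not overlap for PRPF38A (higher) in both of these states and for SNRPE (lower) with EVI1-AQA. The same held without EVI1. It was so for SRSF11, SF3B4 and PRPF3 (all higher) in untransfected cells. With empty vector it was so for SRSF4, HNRNPR and PRPF38A (all higher). The share of all rows without overlap was not counted. Without the 3 libraries that went against the labels the EVI1-AQA difference of SRSF11 was 0.39 ± 0.15 and the EVI1-WT difference of SFPQ was -0.35 ± 0.19. The unadjusted p was then under 0.05 for 1 gene with empty vector (SRSF11), 1 with EVI1-WT (SF3B4, at 0.49 ± 0.22, in place of SFPQ) and 2 with EVI1-AQA (SRSF11, and PRPF38A at 0.38 ± 0.16). Without the 2 widely spread libraries 1 untransfected untreated sample is left. The differences in untransfected cells were then 0.45 ± 0.18 for SRSF11, 0.55 ± 0.20 for PRPF3 and 0.071 ± 0.20 for SRSF4. That sample held the lowest PRPF3 value of all 24, -0.50.

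Whether the response to H2O2 differed among the 4 states was tested by an interaction term. None of the 10 genes passed in limma's test, which called 0.259% of all rows, and 1 gene had an unadjusted p under 0.05 (11.5% of all rows), namely SRSF4 (adjusted p = 0.398 in limma's test). The SRSF4 differences with H2O2 were 0.67 ± 0.19 in untransfected cells, 0.25 ± 0.19 with empty vector, 0.21 ± 0.19 with EVI1-WT and -0.18 ± 0.19 with EVI1-AQA. The first of these rests on the 2 widely spread libraries, and without them it was 0.071 ± 0.20. The EVI1-AQA value was -0.079 ± 0.22 without the 3 libraries that went against the labels, 1 of which it includes. The interaction of SRSF4 was no longer at an unadjusted p under 0.05 in either case.

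The comparison that bears on the motif of EVI1 set EVI1-AQA against EVI1-WT. In untreated cells none of the 10 genes passed in limma's test (0.00% of all rows), and none had an unadjusted p under 0.05 (4.77% of all rows). With H2O2 none passed (0.0173% of all rows) and 1 had an unadjusted p under 0.05 (10.5% of all rows), which was SFPQ. In batches 1, 2 and 3, SFPQ stood at -0.20, -0.32 and -0.37 with EVI1-WT and H2O2 and at 0.28, 0.053 and 0.053 with EVI1-AQA and H2O2. In untreated cells it stood at 0.00021, 0.38 and -0.19 with EVI1-WT and at -0.0023, 0.18 and -0.32 with EVI1-AQA. The treated groups did not overlap, while the untreated groups did. The treated groups also did not overlap for SRSF4 and SNRPE, lower with EVI1-AQA, and PRPF3, higher with EVI1-AQA. The share of all rows without overlap was not counted. For SFPQ the difference between the treated groups was 0.43 ± 0.17 (SE, adjusted p = 0.341 in limma's test). Its difference of the H2O2 effects was 0.54 ± 0.23 (adjusted p = 0.452 in limma's test). For this interaction SFPQ was the 1 gene of the 10 with an unadjusted p under 0.05, against 9.78% of all rows, and the adjusted test called 0.00% of rows. Without the 3 libraries that went against the labels, 2 of which are in these groups, the treated difference of SFPQ was 0.34 ± 0.21 (adjusted p = 0.585 in limma's test) and its interaction 0.45 ± 0.27, both no longer at an unadjusted p under 0.05. SF3B4 was then the 1 gene of the 10 under 0.05 between the treated groups, at -0.54 ± 0.24 (adjusted p = 0.422 in limma's test), against -0.31 ± 0.20 in all samples.

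Against empty vector, neither EVI1 construct gave a difference that passed for any of the 10 genes in limma's test. EVI1-WT was called in 0.00% of all rows in untreated cells and in 0.00% with H2O2, with 0 of the 10 genes at an unadjusted p under 0.05 in both (7.09% and 4.67% of rows). EVI1-AQA was called in 0.0864% of rows untreated and 0.0173% with H2O2, again with 0 of the 10 genes at an unadjusted p under 0.05 (14.9% and 9.15% of rows). The largest of these differences in size were SFPQ with EVI1-AQA and H2O2, 0.30 ± 0.17, and SF3B4 with EVI1-WT and H2O2, 0.27 ± 0.20. Each of the 3 treated groups compared holds 1 of the 3 libraries that went against the labels. Without these, SFPQ with EVI1-AQA was 0.16 ± 0.21 and SF3B4 with EVI1-WT was 0.46 ± 0.24. HNRNPU with EVI1-AQA and H2O2 went from -0.069 ± 0.16 to -0.40 ± 0.15 (adjusted p = 0.450 in limma's test) and was then the 1 gene of the 10 with an unadjusted p under 0.05. HNRNPR was higher than with empty vector in all 3 batches of untreated cells with EVI1-WT (0.20 ± 0.13) and with EVI1-AQA (0.26 ± 0.13). HNRNPU was lower in all 3 batches of the same comparisons (-0.17 ± 0.16 and -0.15 ± 0.16). With EVI1-AQA, SRSF4 and SNRPE were also higher in all 3 batches of untreated cells and SF3A3 was lower. With EVI1-AQA and H2O2, SRSF4 (-0.18 ± 0.19), SNRPE (-0.075 ± 0.11) and SF3A3 (-0.15 ± 0.12) were lower in all 3 batches and SFPQ was higher. With EVI1-WT and H2O2, HNRNPR (0.14 ± 0.13) and SNRPE (0.13 ± 0.11) were higher in all 3 batches and PRPF3 (-0.24 ± 0.16) was lower. At each treatment the 2 comparisons share their control samples, and the share of all rows with such a pattern was not counted.

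Across all 8 groups, 3 of the 10 genes differed in limma's F-test, against 18.4% of all rows: SRSF4 (adjusted p = 0.00707), HNRNPU (0.0433) and SF3A3 (0.0479). With the batch as a replicate block only SRSF4 passed (adjusted p = 0.0228), and HNRNPU and SF3A3 did not (0.0974 and 0.114). Without the 3 libraries that went against the labels SF3A3 again did not pass (adjusted p = 0.0560), while SRSF4 and HNRNPU did. Over all 11579 rows the F-test called only 12 without replicate 2 and 136 without replicate 3, against 2136 with all samples. None of the 10 passed without replicate 2, without replicate 3 or without the 2 widely spread untransfected libraries, where 1, 0 and 6 had an unadjusted p under 0.05 in limma's test.

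In these 3 genes the untransfected groups stood apart from the transfected ones, and the comparison of the 18 transfected with the 6 untransfected samples was added after this had been seen, so its p-values are no independent evidence. SRSF4 was higher and HNRNPU and SF3A3 were lower in transfected cells. Of all rows 21.4% were called, 10.9% as higher and 10.5% as lower.

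SRSF4 in batches 1, 2 and 3 was -0.20, -1.01 and -1.18 in untransfected untreated cells and -0.065, -0.039 and -0.30 in untransfected cells with H2O2. In untreated transfected cells it was -0.14, 0.069 and 0.0045 with empty vector, 0.049, -0.10 and 0.38 with EVI1-WT and 0.12, 0.17 and 0.41 with EVI1-AQA. In transfected cells with H2O2 it was 0.11, 0.36 and 0.23 with empty vector, 0.28, 0.29 and 0.41 with EVI1-WT and -0.14, 0.27 and 0.036 with EVI1-AQA. The 2 lowest samples, in untransfected untreated cells of batches 2 and 3, were the libraries with the wide spread. The difference was 0.62 ± 0.11 (SE, adjusted p = 0.000826 in limma's test), at 0.18, 0.70 and 0.98 within the batches, and without those 2 libraries it was 0.32 ± 0.11 (adjusted p = 0.0961).

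HNRNPU in the same batches was 0.027, 0.53 and 0.50 in untransfected untreated cells and 0.21, 0.38 and 0.39 with H2O2. In the 18 transfected samples it was -0.38 to 0.22 (median -0.11, n = 18), so that the untransfected cells of batches 2 and 3 lay above every transfected sample, and those of batch 1 did not. The difference was -0.45 ± 0.091 (adjusted p = 0.00206 in limma's test), at -0.16, -0.60 and -0.59 within the batches, and -0.29 ± 0.11 (adjusted p = 0.145) without the 2 libraries.

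SF3A3 was 0.18, 0.38 and 0.058 in untransfected untreated cells and 0.11, 0.47 and 0.27 in untransfected cells with H2O2, against -0.22 to 0.11 (median -0.11, n = 18) in the transfected samples. All 6 untransfected values were above 0. The difference was -0.33 ± 0.069 (adjusted p = 0.00281 in limma's test), at -0.20, -0.57 and -0.22 within the batches, and it kept its size without the 2 libraries at -0.31 ± 0.087 (adjusted p = 0.0553).

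The other 7 genes did not pass, PRPF38A coming nearest at 0.20 ± 0.080 (adjusted p = 0.0749 in limma's test), and SRSF11, SNRPE and SF3B4 differed by 0.017, -0.012 and -0.015. Leaving out batches changed the 3 calls: without replicate 2 none of the 10 passed (4 at an unadjusted p under 0.05, the adjusted p of SRSF4 being 0.0583 in limma's test), without replicate 3 only SF3A3 did, and without replicate 1 PRPF38A passed as a 4th gene. Between empty vector and untransfected cells alone, with 3 samples against 3, none passed in limma's test. In untreated cells 0.147% of all rows were called, and 2 of the 10 genes had an unadjusted p under 0.05 (14.7% of rows): SRSF4 at 0.78 ± 0.19 (adjusted p = 0.0957, and 0.18 ± 0.20 without the 2 libraries) and SF3A3 at -0.30 ± 0.12 (-0.28 ± 0.16 without them). With H2O2 0.00% of rows were called, and 2 of the 10 genes had an unadjusted p under 0.05 (11.0% of rows): HNRNPU at -0.44 ± 0.16 and SF3A3 at -0.26 ± 0.12. Without the 3 libraries that went against the labels they were -0.30 ± 0.14 and -0.21 ± 0.13, and HNRNPU alone was under 0.05.

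**Figure D3:**
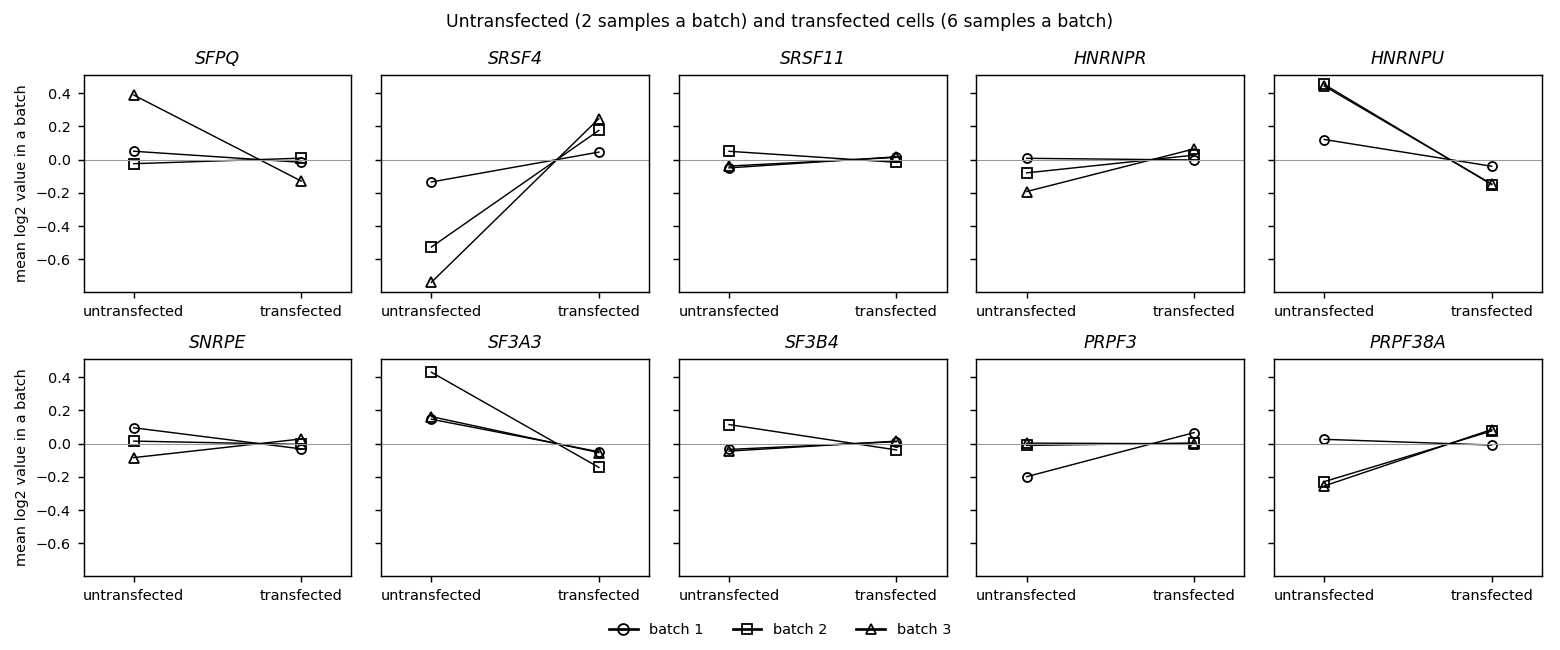
Mean log2 value (y axis) of each splicing factor in untransfected cells (2 samples) and transfected cells (6 samples) of the same batch (x axis), joined by a line for each of the 3 batches. SRSF4 rose and HNRNPU and SF3A3 fell in every batch, SRSF4 and HNRNPU by least in batch 1.

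Between pairs of the 10 genes the profiles ran from alike to opposed. Over the 24 samples, which share batch centring and groups, the closest pair was HNRNPU and SF3A3 (Pearson r = 0.704, Spearman rho = 0.638) and the most opposed was SRSF4 and HNRNPU (r = -0.780, rho = -0.737). SRSF4 was closest to PRPF38A (r = 0.657, rho = 0.590), and SRSF11 to PRPF3 (r = 0.620, rho = 0.576). SFPQ was least like SRSF4 (r = -0.731, rho = -0.774). Of 1121 further rows on chromosome 1, those most like the mean of the 10 genes were PRKAB2, a regulatory subunit of AMP-activated kinase (r = 0.878, rho = 0.903), RABGGTB, a subunit of the Rab prenylating enzyme (r = 0.824, rho = 0.808), and ISG20L2, a nucleolar exonuclease (r = 0.807, rho = 0.803). These are descriptions over 24 samples.

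A list of 34 further splicing genes of chromosome 1 was counted in the same way, and 31 of them had a row. Averaged over the states, 11 of the 31 rose and none fell, 30 of the 31 differences were above 0, and their median was 0.17. With the batch as a block 8 of the 31 rose, SRSF10, PPIE and PRCC (named after their values were seen) no longer passing. The block fit called 1420 of all 11579 rows in either direction. Without replicate 1, 2 or 3 the number of the 31 that rose was 3, 3 and 7, with PRPF38B and ILF2 among them each time. Of all rows 581, 595 and 1218 were then called. Without the 3 libraries that went against the labels 7 of the 31 rose (median 0.14), and 1528 of all rows were called. Without the 2 widely spread libraries the median of the 31 was 0.18. Of the 1131 rows on chromosome 1, 120 were called higher and 80 lower, 617 differences were above 0, and the median was 0.018. The largest rises were those of PRPF38B, a paralog of PRPF38A, at 0.45 ± 0.071 (SE, adjusted p = 0.000358 in limma's test) and of PTBP2, a repressor of alternative exons best known in neurons, at 0.44 ± 0.090 (adjusted p = 0.00275). In the F-test across the 8 groups 8 of the 31 passed, against 18.4% of all rows. Between transfected and untransfected cells 5 were higher (RBM15, PPIE, RSRP1, RNPC3 and PPIH, by 0.23 to 0.72) and 1 was lower (MAGOH, -0.23 ± 0.077). All 6 were named after their values were seen. That comparison called 10.9% of all rows as higher and 10.5% as lower, so the 6 of 31 were near the share of all rows. With the batch as a block 6 of the 31 passed in the F-test and 4 between transfected and untransfected cells, where PPIH and MAGOH no longer did. Without replicates 1, 2 and 3 in turn the F-test called 635, 12 and 136 of all 11579 rows, and 1839 without the 3 libraries that went against the labels. With samples left out, the shares of all rows at an unadjusted p and in the comparison with untransfected cells are not given here. Of the 31 the F-test called 1, 0 and 0 (11, 9 and 11 at an unadjusted p under 0.05 in limma's test). The comparison with untransfected cells called 8, 1 and 4 of them. Without the 3 libraries these numbers were 6 and 5, and without the 2 libraries 6 and 1, the 1 being RBM15.

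In single states PRPF38B passed with EVI1-AQA, at 0.74 ± 0.14 (adjusted p = 0.0118 in limma's test), and SNRNP40 (0.59 ± 0.13) and ILF2 (0.39 ± 0.10), named after their values were seen, passed with empty vector. With the batch as a block PRPF38B still passed (adjusted p = 0.0332), and SNRNP40 and ILF2 did not (0.0600 and 0.110). PRPF38B also passed without replicate 1, without the 3 libraries and without the 2 libraries, but not without replicate 2 or 3, and SNRNP40 and ILF2 did not pass without the 3 libraries. None of the 31 passed in any comparison of EVI1-WT, EVI1-AQA and empty vector with all samples as deposited. After quantile normalization SNRNP40 passed as higher with EVI1-AQA than with empty vector in untreated cells, and CDK11B, which has a near-identical copy in CDK11A, passed as higher with EVI1-AQA than with EVI1-WT and H2O2, as it did without the 2 libraries.

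**Figure D4:**
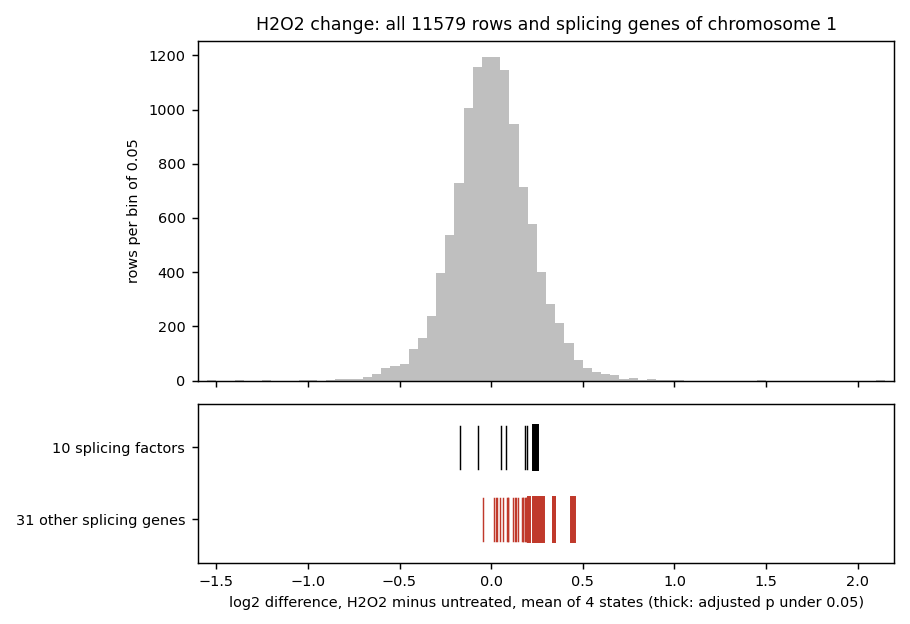
Log2 difference with H2O2 averaged over the 4 transfection states (x axis). Grey bars count all 11579 rows per bin (y axis). Vertical lines below mark the 10 splicing factors (black) and 31 other splicing genes of chromosome 1 (red), thick where the adjusted p is under 0.05. Above 0 lie 8 of the 10 and 30 of the 31, against 5833 of the 11579 rows.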

How the data were processed

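Libraries of polyadenylated RNA from 24 samples of HEK293 cells were made by the authors with a 3′ end kit and sequenced. Per the labels and the paper's methods, reads were assigned to an Ensembl annotation of GRCh38 and filtered by FPKM in the software Qlucore Omics Explorer, and the aligner is not given in the sources used here. The authors deposited a table of log2 values after their normalization, with 11579 rows, in which every row has a mean of 0 within each batch (largest departure 4.5e-06). No low-value filter or pseudocount could be varied, and the depth behind a value is unknown, so only the 3 samples per group state the precision. Every value column was mapped to its sample (0 left unmapped).

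The 8 group means were fitted to all rows with limma 3.58.1 in R 4.3.3, without a replicate block (16 residual degrees of freedom, some already spent by the centring) and, as an alternative, with the batch as a block (14). The batch number in the labels pairs the samples. The mean correlation of deviations from the group means was -0.140 within a batch and 0.0702 between batches, which the centring fixes and which is no test of the pairing. p-values are two-sided and Benjamini-Hochberg adjusted over all 11579 rows, with a threshold of 0.05. Errors are SEs of the fit. The fit was tested on simulated data.

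The genes and the list of other splicing genes were chosen with earlier results of these data known. Named are all 10 genes, the 2 listed genes with the largest rise and the 2 with the largest fall among those that pass with H2O2 (none fell), those that pass in a comparison of EVI1 constructs, and the 3 rows of chromosome 1 most like the mean of the 10. Other listed genes were named after their values were seen. CDK11A, ELAVL4 and CELF3 of that list are not analysed here.

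Alternatives were the block, a fit of the compared samples without moderation, median centring of samples, quantile normalization, leaving out each replicate, leaving out the 3 libraries that depart in the row labelled CACNB3, and rows of chromosome 1 alone. Leaving out 2 untransfected untreated libraries and comparing transfected with untransfected cells were chosen after seeing the data. Positions are from GENCODE v44 and upstream windows from RefSeq (GRCh38.p14). Figures used Python 3.11.15 with pandas 2.3.3 and matplotlib 3.10.9. EVI1's own gene, MECOM, was not analysed here.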

Additional observations from a re-analysis of the deposited data

How the results depend on the processing

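Precision is limited by 3 samples per group. Of 170 counts of genes called under the alternatives, 160 stayed within 1.5 times the count reported, or at 0 where that was 0, and 10 did not. Most of the 170 belong to comparisons that called none of the 10 genes in all samples. Only the F-test across the 8 groups, H2O2 averaged over the states and transfected against untransfected cells called any. The 160 therefore does not measure how stable the calls were. With the replicate block the F-test across the 8 groups called 1 of the 10 genes in place of 3 (911 in place of 2136 rows in all), and the block changed no other call of the 10 genes. Leaving out each replicate gave 0 to 2 genes in that F-test and 0 to 2 for H2O2 averaged over the states. It gave 0 to 1 (SRSF4, without replicate 1) for empty vector against untransfected untreated cells. For transfected against untransfected cells it gave 0 to 4. Over all rows the same leave-outs called 12 to 635 in the F-test and 581 to 1218 for H2O2. Leaving out the 2 untransfected untreated libraries gave 0 genes in the F-test and 0 between transfected and untransfected cells (limma; 6 and 4 at an unadjusted p under 0.05). These leave-outs keep 1 or 2 samples in a group, and a lone sample is assumed to vary like the other groups. Of 200 values of single genes, 175 kept their direction and their side of the threshold, and 17 lost and 2 gained the call. Only SRSF11, HNRNPR and PRPF38A with H2O2, and SRSF4, HNRNPU and SF3A3 between transfected and untransfected cells, had a call to lose. The 17 are therefore to be set against fewer than 200 values. Another 6 turned direction, all in genes that had not passed. With H2O2, HNRNPU ranged from -0.18 to 0.025 over the left-out replicates and was 0.012 without the 2 libraries. Between transfected and untransfected cells SRSF11 ranged from -0.0072 to 0.059, SNRPE from -0.074 to 0.046 and SF3B4 from -0.053 to 0.053 over the left-out replicates, and HNRNPR was -0.0071 without the 2 libraries. The cause of these changes was not tested. Median centring, quantile normalization and rows of chromosome 1 alone left the 3 calls with H2O2 in place, the adjusted p of SRSF11 lying between 0.00791 and 0.0132.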
